A study of Mus musculus with 20 samples.

Results

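The genes described here are 32 markers of macrophages and other leukocytes, measured in gastrocnemius, a calf muscle, of mice. Members were listed by symbol, and each was read from the probe set that the platform annotation assigns to that gene alone and that had the highest mean log2 signal over all samples. All 32 had such a probe set, among 18193 genes that had one. The 31 whose mean signal reached 50.1, the middle of all probe sets, were among the 11200 genes tested. Itgam, an integrin subunit of myeloid cells, was dim and was not tested, with signals of 11.6, 19.2 and 31.7 (lowest, median and highest) in saline and 12.5, 21.3 and 28.0 in JA16 samples.

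The study compared 10 samples from mice given JA16, an antibody that binds myostatin, with 10 from mice given saline. JA16 went into the peritoneum at 0.12 mg per g body weight on day 1 and at 0.09 mg per g on day 3, and the muscle was taken on day 5. The saline group had the same schedule, with injections on days 1 and 3 and death on day 5. Neither group's genotype, strain, sex or age is given in the labels, and no genetic change is named for any sample. Amplified cDNA was hybridised to Affymetrix mouse arrays, which give a MAS5 signal, a linear brightness that has no fixed relation to transcript number. It is compared here between samples for the same probe set, or for the sum of the same probe sets.

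Macrophages live in resting muscle as a sparse resident population and are joined by blood monocytes when fibres are injured. They take up debris and immune complexes through scavenger and Fc receptors, make complement C1q, degrade what they engulf in lysosomes and show peptides to T cells on MHC class II molecules. Whole muscle RNA mixes these cells with the fibres and with every other cell type, so fewer leukocytes and less RNA per leukocyte cannot be told apart.

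The tissue label was borne out by fibre genes: the summed signal of 8 of them, Acta1, Ckm and Myh4 included, lay between 130891 and 185150 in all 20 samples. Labels number the samples of each group 1 to 10, and deviations of same-numbered samples correlated across genes at 0.377 to 0.786, so a fit with the number as a block stands beside the fit without it. Array medians ran from 38.9 to 77.1, the highest being saline replicate 7. The 3' to 5' ratio of the beta-actin controls (log2) was at least 1.33 and at most 1.84 in replicates 1 to 6, while replicates 7 to 10 lay between 0.48 and 0.64. They are called array sets here, and the reason for the step was not tested. For the leukocyte genes, saline replicate 7 and JA16 replicate 1 stood apart from the other samples, and results are given with and without them.

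None of the 31 genes tested differed between JA16 and saline at an adjusted p of 0.05 (limma, Benjamini-Hochberg over 11200 genes), with or without the replicate block. Over all genes 0.0357% passed without the block and 0.277% with it. At an unadjusted p under 0.05 the counts were also 0 of 31, against 2.65% of all genes without the block and 16.2% with it. In the fit of all samples 20 of the 31 were lower and 11 higher in JA16, with a median log2 fold change of -0.069, while 54.2% of all genes were lower and their median was -0.016. The values ran from -0.30 for C1qa to 0.39 for Cd52, and their standard errors from 0.22 to 0.52 without the block and 0.12 to 0.43 with it. No gene had its 10 JA16 samples entirely above or below its 10 saline samples, and the same was true of 0% of all genes.

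**Figure D1:**
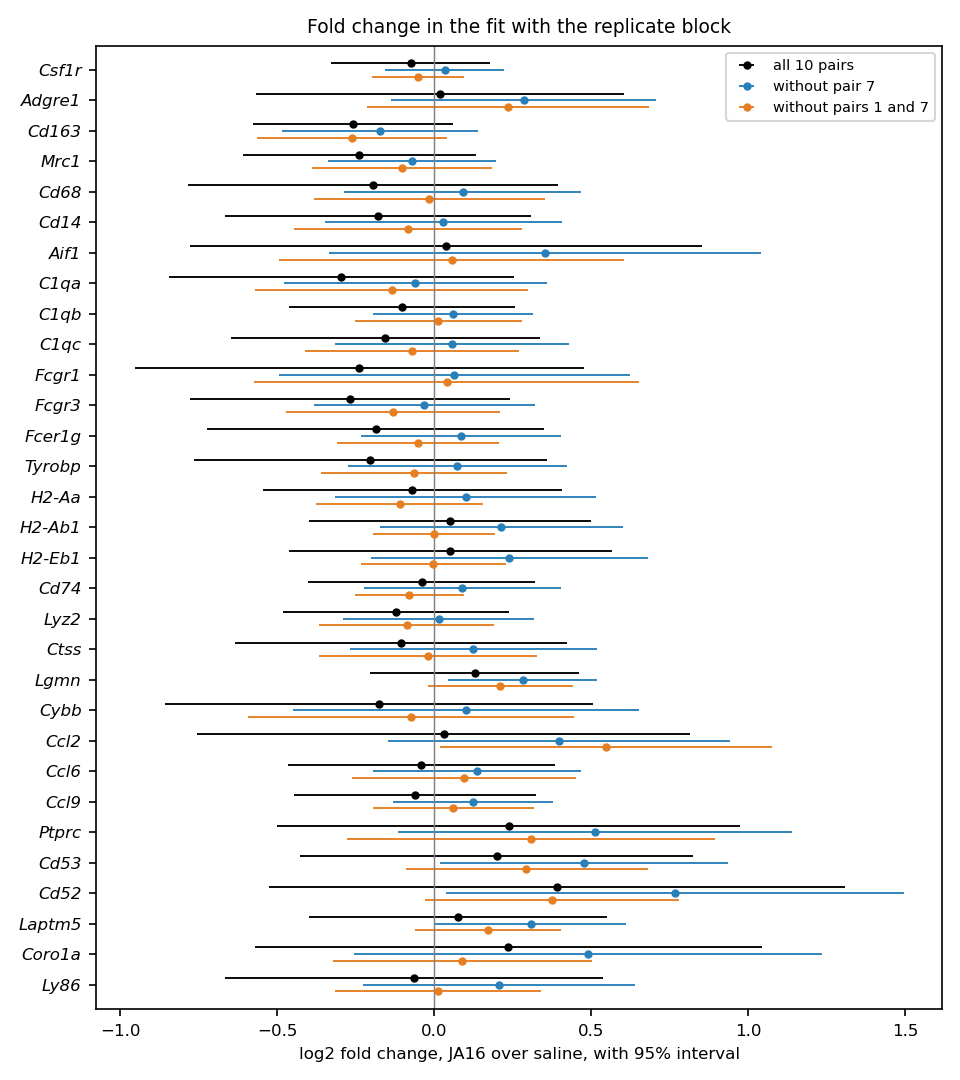
Log2 fold change (JA16 over saline, horizontal axis) of the 31 tested genes (vertical axis) with its 95% interval in the fit with the replicate block, for all 10 pairs (black), without pair 7 (blue) and without pairs 1 and 7 (orange). The black intervals all cross 0, and most points lie further right without pair 7.

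Direction depended on saline replicate 7. Without that sample and without the block, 25 of 31 genes lay above 0 (JA16 over saline, median 0.071), and 0 passed, against 0.0446% of all genes. With the block and without pair 7, 27 of 31 were higher (median 0.10), against 48.2% of all genes, and 0 passed, against 0.125%. An unadjusted p under 0.05 was reached by 4 of 31 genes and 14.5% of all genes. These were Lgmn (0.28, SE 0.11, unadjusted limma p = 0.0233), Cd52 (0.77, SE 0.34, p = 0.0408), Cd53 (0.48, SE 0.21, p = 0.0423) and Laptm5 (0.31, SE 0.14, p = 0.0479), named after their values were seen, and their adjusted p lay between 0.291 and 0.342.

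The shift to higher values rested in turn on pair 1. Without pairs 1 and 7, 14 genes were higher and 17 lower, with a median of -0.003, while 45.6% of all genes were higher. With both pairs out 0 of 31 passed, against 0.161% of all genes. Leaving out only saline replicate 7 and JA16 replicate 1, without the block, gave 13 higher and 18 lower (median -0.071), and 0 passed, against 0.0268%. In both fits Ccl2, a chemokine that draws monocytes, was the only member with an unadjusted p under 0.05 (log2 fold change 0.55, limma p = 0.0432 and 0.0312). That is 1 of 31, against 14.5% of all genes in the blocked fit and 2.96% in the other. With pairs 1, 7 and 10 all left out of the blocked fit, 21 genes were higher and 10 lower, with a median of 0.069. There 0 of 31 passed, against 0.0982% of all genes.

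A pair of samples from different groups held the top of nearly every range. Saline replicate 7 was the highest of all 20 samples for 19 of the 31 genes, against 13.2% of all genes, and JA16 replicate 1 for the remaining 12, against 10.8%. One or the other was therefore the highest for all 31, against 24% of all genes, and both together were the top pair for 17, against 4.46%. Within its own group saline replicate 7 was highest for 27 genes (21.3% of all genes) and JA16 replicate 1 for 23 (16.4%). The median deviation of the 31 genes from their group median was 1.96 (log2) in saline replicate 7 and 1.39 in JA16 replicate 1, then 0.78 in JA16 replicate 9 and 0.57 in saline replicate 2. At the other end, JA16 replicate 10 was at -0.69 and was the lowest of 20 for 13 genes, against 4.54% of all genes. The group medians span both array sets, so these deviations and ranks also carry differences between the sets. Over all genes tested, no sample's median deviation exceeded 0.044.

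**Figure D2:**
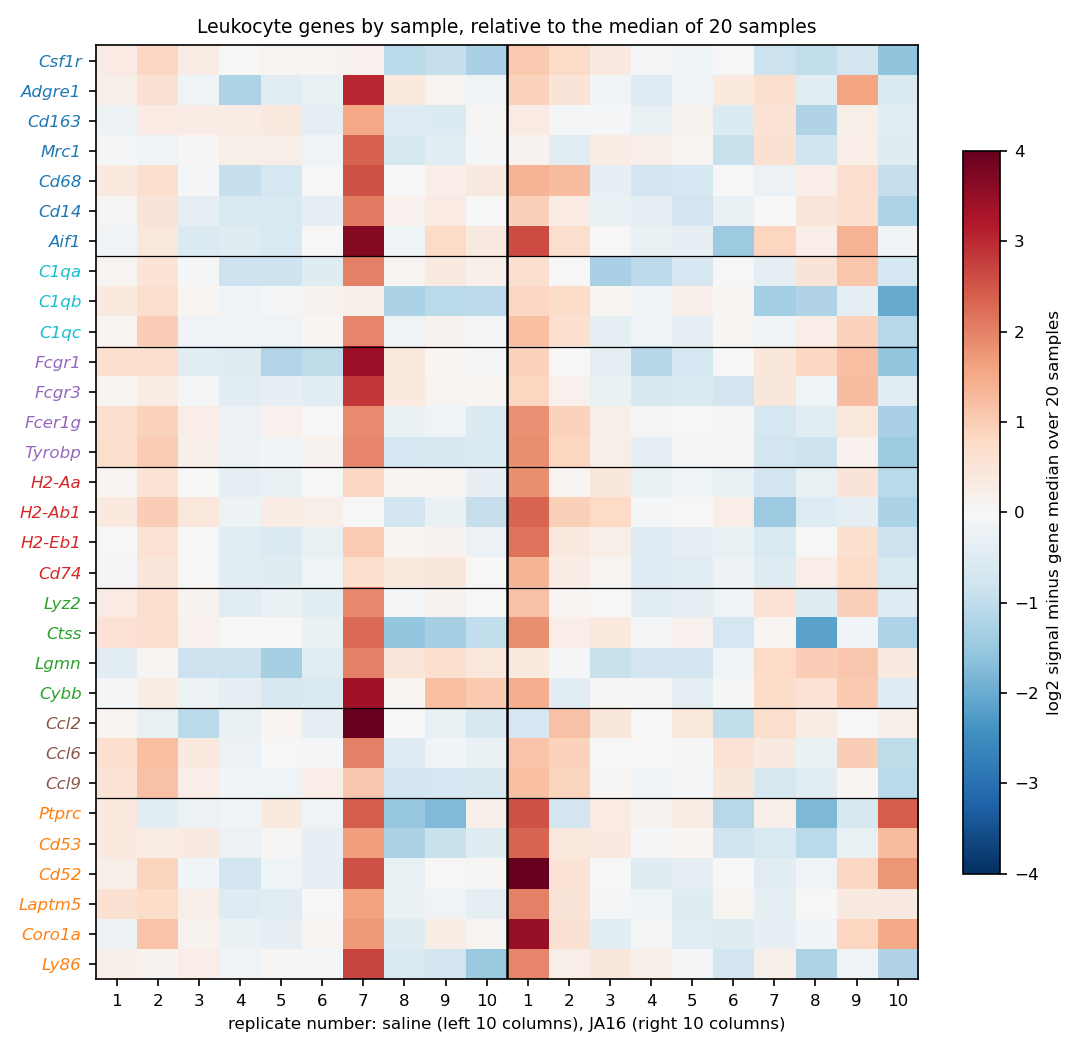
Log2 signal of the 31 tested genes (rows, coloured by role) in each of 20 samples (columns, saline left, JA16 right), minus the gene's median over all samples. Saline replicate 7 and JA16 replicate 1 are the dark columns, and JA16 replicate 10 is low in the upper rows and high for Ptprc, Cd53, Cd52 and Coro1a.

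The spread within groups was wide. The median standard deviation of the 31 genes on the log2 scale was 0.82 in saline and 0.81 in JA16 samples, against 0.41 and 0.46 over all genes. Without saline replicate 7 it was 0.50 in saline (0.38 over all genes), and without JA16 replicate 1 it was 0.65 in JA16 (0.45 over all genes).

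Macrophage receptors and surface markers were lower in JA16 for 5 of 7 tested genes (median log2 fold change -0.18, and 0.034 without pair 7). Saline replicate 7 lay 5.28-fold and JA16 replicate 1 2.13-fold above its group median, as medians over the group. Mrc1, the mannose receptor of resident and repair macrophages, had signals of 501.8, 755.9 and 4055 (lowest, median and highest) in saline and 423.8, 863.1 and 1209 in JA16 samples. Its highest saline value was replicate 7, the next was 933.5, and JA16 replicate 1 was near its group median at 872.7. The log2 fold change of Mrc1 was -0.24 (SE 0.29) and -0.071 (SE 0.13) with the block and without pair 7. Adgre1, which encodes an adhesion receptor widely used to mark mouse macrophages, ran from 84.8 to 1591 around a median of 194.9 in saline, and from 131 to 586.6 around 220.8 in JA16. Here too saline replicate 7 was highest, 8.16-fold above the saline median, and the highest JA16 sample was replicate 9. Adgre1 was at 0.019 (SE 0.38).

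Cd163, the scavenger receptor for haemoglobin, had the lowest p of the 31 genes in the blocked fit. Its signals were 378.3, 619.5 and 1620 (lowest, median and highest) in saline and 240.7, 525.1 and 800.4 in JA16 samples. The groups overlapped, and 8 of 10 pairs were lower in JA16, for a log2 fold change of -0.26 (blocked SE 0.15, limma adjusted p = 0.396). Cd68, a glycoprotein of macrophage lysosomes, had saline signals of 183.1, 384.8 and 2025 and JA16 signals of 185.4, 320.5 and 889.2 (lowest, median and highest). Replicate 7 was again the top saline sample, and in JA16 replicates 1 and 2 were high, at 889.2 and 826. Its log2 fold change was -0.20 (SE 0.36).

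Cd14, a co-receptor for bacterial lipopolysaccharide, ran from 121.7 to 773.2 (median 185.8) in saline and from 78.0 to 357.4 (median 169.2) in JA16 samples. Aif1, a calcium-binding protein of activated macrophages, ran from 31.5 to 609.8 (median 46.2) in saline and from 17.7 to 294.3 (median 52.7) in JA16 samples. For both genes saline replicate 7 was the highest saline sample and JA16 replicate 1 the highest JA16 sample, at 13.2-fold and 5.59-fold over the group medians for Aif1. Their log2 fold changes were -0.18 (SE 0.31) and 0.038 (SE 0.49).

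Csf1r, the receptor for the growth factor that keeps macrophages alive, stood out from this pattern. Its signals were 1768, 4670 and 7717 (lowest, median and highest) in saline and 1423, 4023 and 8972 in JA16 samples. Saline replicate 7 was only the fourth of the saline samples, at 4962, or 1.06-fold over the median of both array sets. In its own array set it was the highest saline sample, with replicates 8, 9 and 10 at 2079, 2292 and 1768. Saline replicates 1 to 6 lay between 4342 and 7717. The other probe sets of Csf1r read the same sample 1.72-fold and 3.57-fold above the saline median, so the probe sets disagreed. By the brightest one Csf1r was at -0.074 (SE 0.31).

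C1q subunits, which together form the recognition unit of the classical complement pathway and are encoded side by side on chromosome 4, were lower in JA16 for all 3 genes (median -0.155), and for 1 of 3 without pair 7 (median 0.057). C1qc ran from 622.8 to 2725 (median 701.8) in saline and from 325.6 to 1604 (median 697.8) in JA16 samples. C1qa ran from 158.4 to 1146 (median 302.1) in saline and from 115.8 to 607.3 (median 246.6) in JA16 samples. Saline replicate 7 was the highest saline sample for both, 3.88-fold and 3.79-fold over the median, while the highest JA16 sample was replicate 1 for C1qc and replicate 9 for C1qa. C1qa had the lowest log2 fold change of all members, -0.30 (SE 0.33), and 5 of 10 pairs were lower.

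C1qb was read by a probe set whose identifier marks probes that can match other sequences. Its signals were 3205, 7724 and 12562 (lowest, median and highest) in saline and 1923, 7686 and 13723 in JA16 samples. By this probe set saline replicate 7 was at 8898, or 1.15-fold over the median of both array sets and below replicates 2 and 1. By the others it was at 1.5-fold and 4.78-fold. In its own array set it was the highest saline sample by this probe set, with replicates 8 to 10 between 3205 and 3708. Saline replicates 1 to 6 lay between 7071 and 12562. The log2 fold change of C1qb was -0.10 (SE 0.33).

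Fc receptors bind the constant part of antibodies, and Fcer1g and Tyrobp are adaptors that pass their signals and those of related receptors into the cell. All 4 genes were lower in JA16 (median log2 fold change -0.22), and 3 of 4 were higher without pair 7 (median 0.069). Fcgr3 had signals of 322.5, 467 and 3142 (lowest, median and highest) in saline and 266.2, 379.5 and 1029 in JA16 samples. Of the saline samples replicate 7 was 6.73-fold above the median and the next was 582.5, while in JA16 replicates 9 and 1 led at 1029 and 799. Its log2 fold change was -0.27 (SE 0.34), and -0.031 (SE 0.17) with the block and without pair 7. Fcgr1, the high-affinity receptor, ran from 32.4 to 782.1 (median 73.8) in saline and from 24.5 to 167.9 (median 73.2) in JA16 samples. Saline replicate 7 was 10.6-fold and JA16 replicate 1 1.88-fold above its group median, and Fcgr1 was at -0.24 (SE 0.46).

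The adaptors differed from both receptors in JA16 replicate 1. Fcer1g ran from 586.9 to 3194 (median 905.7) in saline and from 349.7 to 3006 (median 833) in JA16 samples. Tyrobp ran from 419.5 to 2634 (median 695.3) in saline and from 252.2 to 2496 (median 682.1) in JA16 samples. For these adaptors saline replicate 7 and JA16 replicate 1 were about as far above their groups, at 3.53-fold and 3.61-fold for Fcer1g and 3.79-fold and 3.66-fold for Tyrobp, and JA16 replicate 10 was the lowest JA16 sample. Their log2 fold changes were -0.19 (SE 0.33) and -0.20 (SE 0.36).

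**Figure D3:**
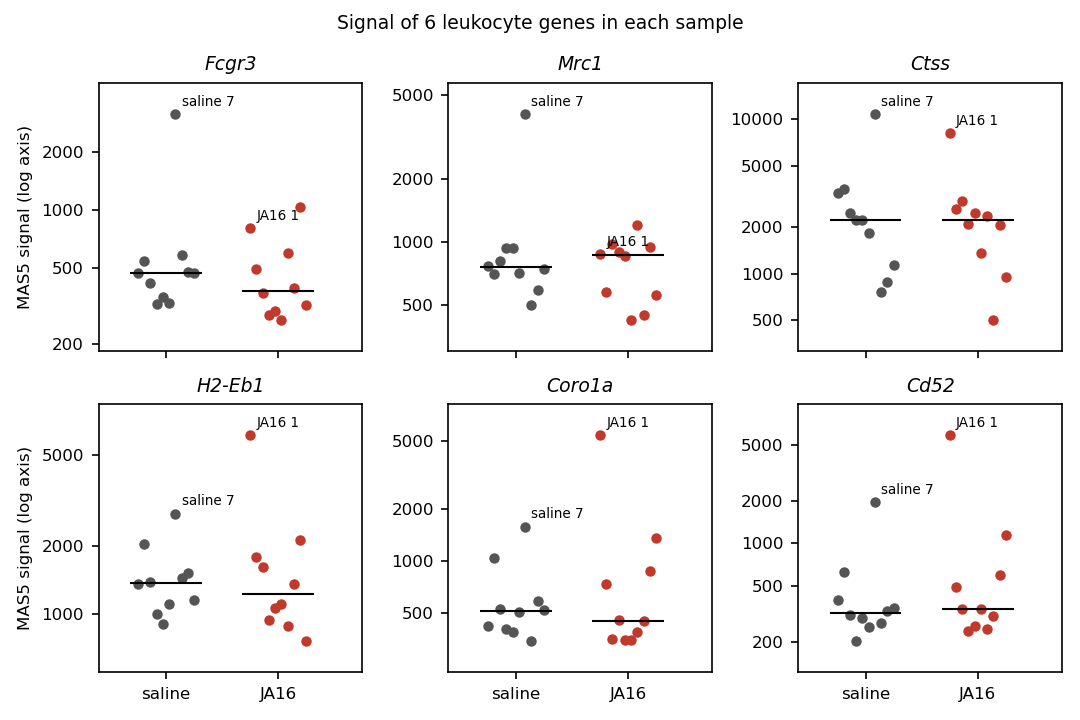
MAS5 signal (vertical log axis) of 6 genes in the 10 saline (grey) and 10 JA16 (red) samples, 1 point per sample, with a line at the group median. Saline replicate 7 is highest for Fcgr3, Mrc1 and Ctss and JA16 replicate 1 for H2-Eb1, Coro1a and Cd52, while the other points of the groups overlap.

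In MHC class II genes JA16 replicate 1 stood higher than saline replicate 7. H2-Aa, H2-Ab1 and H2-Eb1 encode chains of the class II molecules on chromosome 17, and Cd74 encodes the invariant chain that guards their groove. In JA16 replicate 1 they lay 4.29-, 5.16-, 4.98- and 2.61-fold above the JA16 median, and this sample was the highest of 20 for all 4. In saline replicate 7 they lay 1.71-, 0.917-, 2.02- and 1.62-fold of the saline median. Known class II promoters share a Y box that the factor NF-Y binds, and the 8 letters CTGATTGG were searched on both strands in the 250 bases before each start site in RefSeq (GRCm38.p6). They were found for 2 of the 23 members in that table, H2-Aa and H2-Eb1, and for 4.43% of all genes in it. The promoters of H2-Ab1 and Cd74 were not searched. Both stretches are printed over the 100 bases before the start site, 5′ to 3′ on the gene's strand, with the Y box in capitals. H2-Aa lies on the minus strand at chr17:34287824-34287923 and H2-Eb1 on the plus strand at chr17:34305767-34305866.
H2-Aa: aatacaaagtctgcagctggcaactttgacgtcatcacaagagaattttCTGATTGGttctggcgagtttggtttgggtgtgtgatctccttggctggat
H2-Eb1: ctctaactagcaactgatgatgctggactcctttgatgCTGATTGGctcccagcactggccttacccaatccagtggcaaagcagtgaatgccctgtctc
The box begins 51 bases before the start of H2-Aa and 62 bases before that of H2-Eb1, and a match of letters is a description and not a measured site.

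H2-Eb1 had signals of 905.5, 1372 and 2766 (lowest, median and highest) in saline and 758, 1231 and 6134 in JA16 samples. JA16 replicate 1 was far above the next JA16 sample, which was 2128. H2-Aa ran from 1683 to 3778 (median 2205) in saline and from 1010 to 7817 (median 1822) in JA16 samples. Cd74 ran from 3687 to 8328 (median 5154) in saline and from 3348 to 13089 (median 5023) in JA16 samples. H2-Ab1 ran from 714.2 to 2703 (median 1470) in saline and from 501.2 to 6854 (median 1328) in JA16 samples. Its saline maximum was replicate 2, with replicate 7 below the median of both array sets at 1347. In its own array set replicate 7 was the highest saline sample, with replicates 8 to 10 between 714.2 and 1129. The other probe sets of H2-Ab1 read replicate 7 at 1.43-fold and 1.77-fold of the saline median, so the probe sets disagreed. The groups overlapped for all 4. Their log2 fold changes were 0.051 (SE 0.29) for H2-Eb1, -0.069 (SE 0.26) for H2-Aa, -0.040 (SE 0.22) for Cd74 and 0.050 (SE 0.36) for H2-Ab1, and without pairs 1 and 7 all 4 were below 0, between -0.11 and -0.001.

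Enzymes of lysosomes and phagocytes were lower in JA16 for 3 of 4 genes (median log2 fold change -0.11), and for none without pair 7 (median 0.11). Ctss, a cathepsin that trims the invariant chain, had signals of 765.5, 2218 and 10781 (lowest, median and highest) in saline and 499.8, 2238 and 8075 in JA16 samples. Lyz2, the lysozyme of myeloid cells, ran from 2501 to 13131 (median 3638) in saline and from 2411 to 7819 (median 3246) in JA16 samples. For both, saline replicate 7 and JA16 replicate 1 were the highest samples of their groups, at 4.86-fold and 3.61-fold for Ctss. Their log2 fold changes were -0.11 (SE 0.44) and -0.12 (SE 0.27).

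Cybb, the catalytic subunit of the phagocyte oxidase, ran from 45.4 to 749.9 (median 72.0) in saline and from 49.6 to 196.1 (median 70.9) in JA16 samples. Lgmn, a lysosomal protease that cuts after asparagine, ran from 298.4 to 3074 (median 670.3) in saline and from 402.2 to 1598 (median 839.7) in JA16 samples. For Cybb saline replicate 7 was 10.4-fold above the saline median and for Lgmn 4.59-fold, while JA16 replicate 1 was at 2.77-fold and 1.18-fold of its own. Cybb was at -0.18 (SE 0.41) and Lgmn at 0.13 (SE 0.36).

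Chemokine genes, all 3 on chromosome 11, were at log2 fold changes of 0.030 (SE 0.45) for Ccl2, -0.041 (SE 0.30) for Ccl6 and -0.060 (SE 0.29) for Ccl9. Ccl2 had signals of 31.5, 54.0 and 1044 (lowest, median and highest) in saline and 33.6, 78.3 and 149.4 in JA16 samples. In saline replicate 7 it was 19.3-fold above the saline median, the largest such ratio of any member in that sample, and the next saline sample was 71.0. JA16 replicate 1 was low for Ccl2, at 40.7 or 0.52-fold of its group median. Ccl6 and Ccl9, chemokines made by macrophages of mice, ran from 875.6 to 5081 and from 709.6 to 2709 in saline, with medians of 1230 and 1296. In JA16 they ran from 618.5 to 2752 and from 580.3 to 2777, with medians of 1452 and 1216, and replicate 1 was highest for both. For Ccl9 the highest saline sample was replicate 2, not replicate 7. In its own array set replicate 7 was the highest saline sample for Ccl9, at 2548, with replicates 8 to 10 between 709.6 and 774.5. By the other, dimmer probe set of Ccl9 replicate 7 was the highest of all saline samples, at 3.78-fold of the saline median.

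General leukocyte genes are shared by myeloid and lymphoid cells, and 5 of 6 were higher in JA16 (median log2 fold change 0.22). Without pair 7, and without pairs 1 and 7, 6 of 6 were higher, with medians of 0.48 and 0.23. In pair 10 the JA16 sample exceeded saline by 2.20 (log2) for Ptprc, 1.73 for Cd53 and 1.73 for Cd52, and T and NK cell genes were at a median of 3.02-fold in JA16 replicate 10. With pair 10 left out as well, 4 of 6 general leukocyte genes were higher, with a median of 0.063 (0 of 31 members passed, against 0.0982% of all genes), and in replicates 2 to 6 the median was -0.031. The part of T and NK cells in this group's values was not tested. Cd52, a small surface glycoprotein, had signals of 201.7, 322.2 and 1949 (lowest, median and highest) in saline and 240.3, 342.8 and 5858 in JA16 samples. JA16 replicate 1 was 17.1-fold and saline replicate 7 6.05-fold above its group median, and the next JA16 sample was replicate 10 at 1155. The log2 fold change of Cd52, the highest of all members, was 0.39 (SE 0.49). Coro1a, an actin regulator of leukocytes, ran from 341.7 to 1586 (median 517) in saline and from 347.1 to 5413 (median 450.2) in JA16 samples, where replicate 1 was 12.0-fold above the median. Coro1a was at 0.24 (SE 0.42).

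Ptprc, the tyrosine phosphatase found on all leukocytes, ran from 60.3 to 1091 (median 183.9) in saline and from 58.6 to 1174 (median 226.8) in JA16 samples. Cd53, a tetraspanin, ran from 517.7 to 4002 (median 1175) in saline and from 587.6 to 6256 (median 1265) in JA16 samples. In both genes JA16 replicate 10 was second only to replicate 1 within JA16, at 1078 for Ptprc and 2956 for Cd53. Their log2 fold changes were 0.24 (SE 0.52) and 0.20 (SE 0.38).

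Laptm5, a lysosomal membrane protein of blood cells, ran from 1696 to 7381 (median 2314) in saline and from 1722 to 9775 (median 2513) in JA16 samples. Ly86, the partner of a Toll-like receptor homologue on B cells and macrophages, ran from 108.9 to 1982 (median 306.6) in saline and from 128.8 to 1198 (median 322) in JA16 samples. JA16 replicate 1 was the highest JA16 sample for both and saline replicate 7 the highest saline sample. Laptm5 was at 0.076 (SE 0.28) and Ly86 at -0.064 (SE 0.41).

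Many genes of this set are known targets of PU.1, an ETS family factor of myeloid and B cells, and its core letters GAGGAA were searched in the same way. They lay within 250 bases upstream of 12 of the 23 members in the RefSeq table and of 25.9% of all genes in it. The longer form GAGGAAGT lay upstream of 1 of 23, C1qc, and of 2.79% of all genes. Printed are 3 of the 12 members with the core, C1qb and the general leukocyte genes Laptm5 and Cd53. They were not the closest, as the core lay 6, 7 and 15 bases before the start of Fcgr3, Aif1 and Itgam. The 60 bases before the start site are shown, 5′ to 3′ on the gene's strand, with the core in capitals. C1qb lies on the minus strand at chr4:136886201-136886260, Laptm5 on the plus strand at chr4:130913256-130913315, where the core is on the opposite strand, and Cd53 on the minus strand at chr3:106790150-106790209 (GRCm38.p6).
C1qb: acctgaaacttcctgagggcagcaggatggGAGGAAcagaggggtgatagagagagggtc
Laptm5: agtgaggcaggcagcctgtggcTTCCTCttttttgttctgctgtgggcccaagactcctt
Cd53: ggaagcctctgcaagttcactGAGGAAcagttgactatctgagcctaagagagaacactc
These matches describe letters only; no binding was measured.

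Pair by pair, nearly all members lay on one side of 0 in pairs 1, 7 and 9, and both directions occurred more widely in the others. In pair 1 JA16 exceeded saline for 30 of 31 genes, by a median of 1.07 (log2), and in pair 9, 29 of 31 with 0.61. In pair 7, 0 of 31 were higher, with a median of -2.06. Pairs 2 and 10 had 7 of 31 higher each, with medians of -0.21 and -0.48. Pairs 3, 4, 5, 6 and 8 had between 13 and 20 higher and medians between -0.025 and 0.16. Over all genes the share higher in JA16 was between 45.7% and 54.2% in every pair. No member was higher in JA16 in more than 7 of 10 pairs, and none in fewer than 2.

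**Figure D4:**
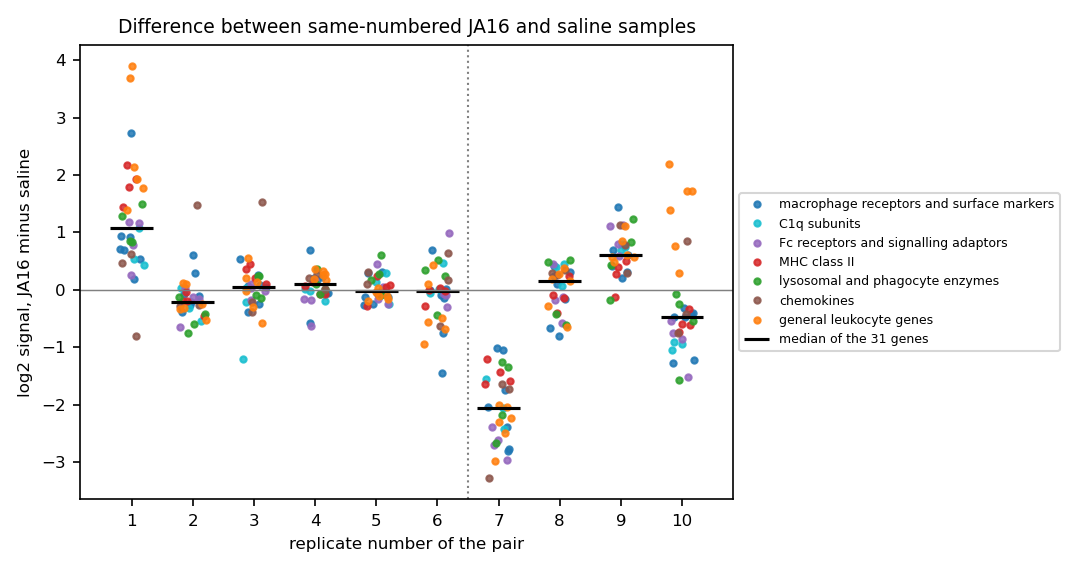
Difference in log2 signal between the JA16 and saline samples of each replicate number (horizontal axis), 1 point per tested gene coloured by role, with a bar at the median of the 31 genes. A dotted line separates the array sets; pair 1 lies above 0 at a median of 1.07, pair 7 wholly below 0 at -2.06, and pair 10 is divided by role.

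The array sets gave opposite directions. In replicates 1 to 6 with the block, 27 of 31 log2 fold changes were above 0 (median 0.21), against 49.2% of all genes. In replicates 7 to 10, 28 of 31 were lower (median -0.46), against 54.9% of all genes. In each set alone 0 members passed, as did 0% of all genes. The difference between the sets was below 0 for all 31 genes, against 50.4% of all genes, with a median of -0.58. It passed for 0 members (limma, lowest adjusted p = 0.999) and for 0% of all genes, and at an unadjusted p under 0.05 for 1 member, against 2.68% of all genes. That member was Cybb, at -1.33 (SE 0.57, unadjusted limma p = 0.0367).

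Each set held 1 of the samples that stood apart. In replicates 2 to 6, without pair 1, 11 genes were higher and 20 lower (median -0.028). In replicates 8 to 10, without pair 7, 17 were higher (median 0.037), against 47.1% of all genes. Again 0 members passed in either subset, as did 0% of all genes. With pairs 1 and 7 both left out, the difference between the sets was above 0 for 19 genes and below 0 for 12, with a median of 0.099. It passed for 0 members and 0% of all genes (limma), and 5 of 31 members had an unadjusted p under 0.05, against 2.32% of all genes. These were Ptprc (1.11, SE 0.50), Cd53 (0.87, SE 0.30), Cd52 (0.86, SE 0.33), Laptm5 (0.54, SE 0.18) and Coro1a (1.11, SE 0.27, unadjusted limma p = 0.00142), all general leukocyte genes. The same 5 had an unadjusted p under 0.05 in replicates 8 to 10 alone, against 4.26% of all genes, and 2 members, Cd163 and Coro1a, both lower in JA16, in replicates 2 to 6, against 10% of all genes. Replicates 8 to 10 hold JA16 replicate 10, in which these 5 genes were 1.25- to 4.75-fold of the JA16 median. In replicates 8 to 10 the general leukocyte genes were at a median of 0.81 and the other role groups between -0.11 and 0.24, and these medians were not tested.

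Genes of other cell types were read beside the leukocyte genes in the samples that stood apart. Of the 20 samples, saline replicate 7 was the highest for 6 of 8 tested genes of regenerating and embryonic muscle, at a median of 5.18-fold over the saline median. Myh3, the embryonic myosin heavy chain, was at 3878 there against a saline median of 105.3, or 36.8-fold. Tnnt2, Myh8 and Myog, a troponin, the neonatal myosin and a differentiation factor, were at 9.91-, 7.45- and 6.14-fold. In JA16 replicate 1 the same list was at 1.01-fold. Other macrophage genes were highest in saline replicate 7 for 15 of 19, at a median of 2.87-fold over the saline median. Ms4a7 was at 17-fold and Mpeg1, a pore-forming protein of phagocytes, at 10.3-fold. Cbr2, Timd4 and Maf were below the saline median there, at 0.57-, 0.837- and 0.847-fold. Ccr2, the receptor for the product of Ccl2 on monocytes, was at 10.2-fold and the activating Fc receptor gene Fcgr4 at 11.8-fold. The medians of their lists, monocyte genes and complement and Fc receptor partners, were 4.59-fold and 2.61-fold. Adipocyte, T and NK cell and mast cell lists were at 1.03-, 1.03- and 1.02-fold in that sample. The genes named in this paragraph and in those on JA16 replicates 1 and 10 were picked after their values were seen, and the part of these cell types in the differences between groups was not tested.

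JA16 replicate 1 had another company. Adipocyte genes were at a median of 13.5-fold over the JA16 median and were highest of 20 in this sample for 4 of 5. Retn, a hormone of fat cells, was at 33.9-fold and Adipoq, the adiponectin gene, at 17.1-fold. T and NK cell genes were at 4.29-fold, with the T cell kinase gene Zap70 at 7.97-fold, and mast cell genes at 3.28-fold. Among the tested T and NK cell genes only Prf1 was below the JA16 median, at 0.837-fold. Other antigen presentation genes were highest there for 8 of 10, with H2-DMa, which loads peptides onto class II molecules, at 4.62-fold. Rac2, a leukocyte GTPase of the oxidase, was at 16.4-fold. Of 20 T and NK cell genes 17 had a single-gene probe set, and 5 of these reached the signal needed for testing.

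**Figure D5:**
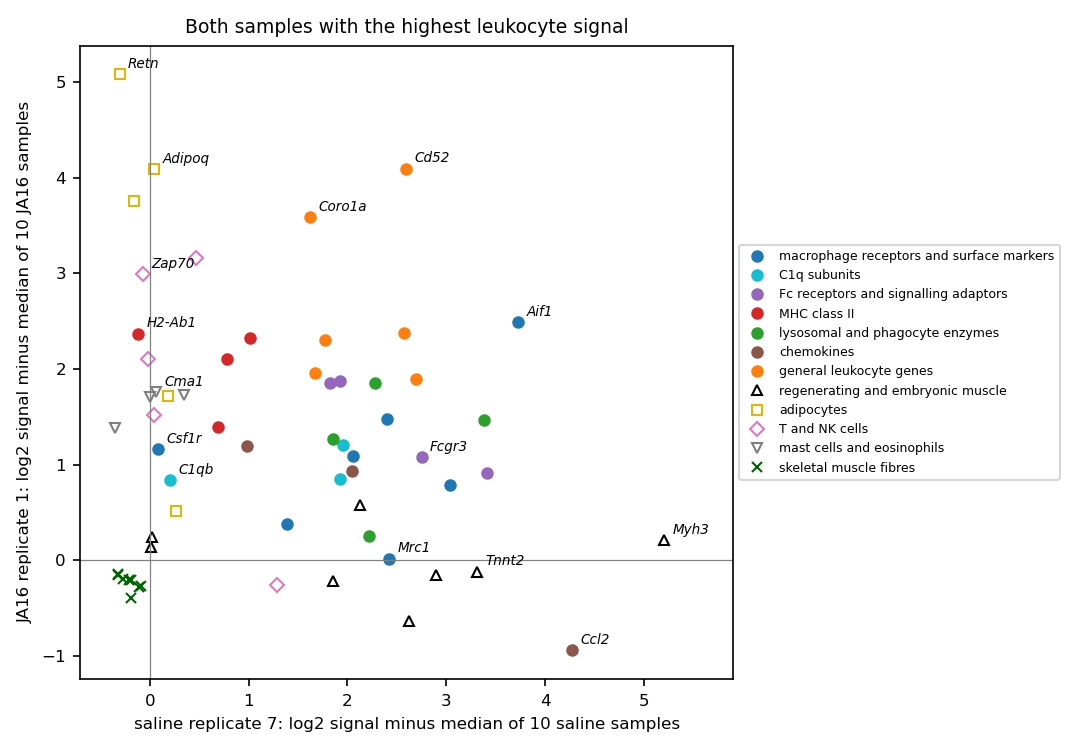
Log2 signal of saline replicate 7 minus the saline median (horizontal axis) against that of JA16 replicate 1 minus the JA16 median (vertical axis), 1 point per gene, coloured by role (filled) or by other cell type (open). Regenerating muscle genes such as Myh3 lie to the right near 0 on the vertical axis, adipocyte genes such as Retn lie high near 0 on the horizontal axis, and most leukocyte genes are above 0 on both.

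JA16 replicate 10 divided the members by role. Genes of macrophage receptors, C1q, Fc receptors and adaptors, class II and chemokines were at medians of 0.603-, 0.468-, 0.394-, 0.586- and 0.478-fold of the JA16 median, and those of lysosomal enzymes at 0.722-fold. This median spans both array sets, and some probe sets differed between them. Csf1r lay between 2232 and 2639 in JA16 replicates 7 to 9, against 3878 to 8972 in 1 to 6. Lgmn was higher there, at 1294 to 1598 against 402.2 to 992.7. The part of the array set in these ratios was not tested. The general leukocyte genes were at 2.67-fold, with Ptprc at 4.75-fold, Cd52 at 3.37-fold, Coro1a at 3.04-fold and Cd53 at 2.34-fold, while Ly86 was at 0.416-fold. T and NK cell genes were at 3.02-fold in this sample, with Cd2, an adhesion molecule of T cells, at 9.40-fold and Cd247, a chain of the T cell receptor complex, at 5.20-fold, both the highest of 20. Among the tested genes of that list only Thy1 was below the JA16 median, at 0.599-fold. Ighm, the immunoglobulin heavy chain of naive B cells, was at 2.04-fold and also the highest of 20, while Jchain, the other B cell gene tested, was at 0.674-fold. Adipocyte genes were at 0.402-fold.

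Related genes outside the 32 gave no calls either in the fit without the block. Other macrophage genes were lower in JA16 for 14 of 19 (median -0.17), and 10 of 19 were higher without pair 7. Their largest values were 0.42 (SE 0.25) for Cbr2 and -0.31 (SE 0.35) for Spi1, which encodes PU.1. Monocyte genes were lower for 4 of 4 (median -0.195), with Fn1 at -0.28 (SE 0.23) and Ccr2 at -0.25 (SE 0.45). Complement and Fc receptor partners were lower for 10 of 12 (median -0.088), with C3ar1, a receptor for a fragment of C3, at -0.48 (SE 0.36). Other chemokines and receptors were lower for 11 of 13 (median -0.14), damage-associated macrophage genes for 6 of 8 (median -0.089) and other antigen presentation genes for 5 of 10 (median 0.002). Phagocyte oxidase and actin genes were higher for 5 of 8 (median 0.070). Of these lists 0 genes passed with the replicate block as well.

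Lymphocyte and mast cell genes had one direction within each list. T and NK cell genes were higher in JA16 for 5 of 5 (median 0.43), with Cd2 at 0.61 (SE 0.50) and Zap70 at 0.45 (SE 0.36). Mast cell genes were lower for 4 of 4 (median -0.42), with Cpa3, a carboxypeptidase of mast cell granules, at -0.72 (SE 0.38). Of these 0 passed in either fit, and the only gene of any comparison list that passed with the block was Actc1, the cardiac actin of embryonic fibres (0.72, blocked limma adjusted p = 0.0339). Without pairs 1 and 7 the T and NK cell median was 0.16 and the mast cell median -0.56, and without pair 10 as well they were 0.076 and -0.42.

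The remaining comparison lists were counted in the same fit. Neutrophil genes were lower in JA16 for 3 of 4, with S100a8, a calcium-binding protein of neutrophils, at -0.40 (SE 0.36), B cell genes higher for 2 of 2, with Ighm at 0.46 (SE 0.30), and dendritic cell genes higher for 1 of 2, with Irf8 at 0.27 (SE 0.26). Adipocyte genes were lower for 5 of 5 (median -0.375), with Adipoq at -0.56 (SE 0.57), and at a median of -0.875 without pairs 1 and 7. Fibroblast and tendon genes were lower for 8 of 9 (median -0.19), with Tnmd, a membrane protein of tendon cells, at -0.98 (SE 0.48). Schwann cell genes were lower for 5 of 5 (median -0.585), with S100b at -0.82 (SE 0.35) and Drp2 at -0.80 (SE 0.23). Endothelial genes were lower for 7 of 9 (median -0.17), muscle fibre genes higher for 7 of 8 (median 0.053), regenerating and embryonic muscle genes lower for 5 of 8 (median -0.23), and the 1 tested red blood cell gene, Alas2, was at -0.096 (SE 0.25). The single leukocyte genes cannot be assigned to one cell type in these mixed samples, and the part of other cell types in their values was not tested.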

How the data were processed

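The deposited values are linear signal intensities of 45101 probe sets on 20 Affymetrix arrays, made with MAS5 per the submitters' processing notes; each array has a trimmed mean of 500, with 2% taken off each end. RNA was extracted with Trizol and amplified with NuGEN reagents per the labels' protocols. Of the probe sets 34945 were annotated to 1 gene, 932 to several, 9160 to none, and 64 were controls. The 5 values at or below 0 were set to 0.1 and log2 was taken. Probe sets with a mean log2 signal under the median of all (5.65) were left out, and the brightest per gene was kept. limma 3.58.1 (R 4.3.3) with a mean-dependent prior was fitted to 10 JA16 and 10 saline samples, with Benjamini-Hochberg adjustment over 11200 genes. The fit was tested on simulated data.

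The main fit has no block. Same-numbered samples deviated together in all 10 pairs (0.377 to 0.786), against a median of -0.108 between other numbers. Same-numbered samples always share an array set and many other combinations do not, and the array set was not taken out of the deviations. The correlations therefore cannot tell pairing by number from a shared array set. The labels do not say that each sample is a separate mouse, so p-values measure the spread between samples, which may be technical. Within each pair the saline array has the lower array number, so array order and treatment cannot be told apart there. The number of arrays limits the precision.

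The 32 members and the comparison lists were chosen with earlier results of these data known. All members are named; of each comparison list, fold changes are given only for genes among the 2 with the largest absolute values, and other names were picked after their values were seen. Alternatives are in the closing section.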

Additional observations from a re-analysis of the deposited data

Results flagged for a closer look

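Within a group of 10 samples, a sample was counted as far from the rest where its gap to the nearest one exceeded 0.466 of the group's log2 range (Dixon's 95% criterion), which chance passes in about 1 of 20 groups. Saline replicate 7 was far above the other saline samples for 15 of 31 genes, against 2.82% of all genes for this sample. The gap was 0.57 of the range for Adgre1, 0.555 for Cd163, 0.703 for Mrc1, 0.546 for Cd68, 0.576 for Cd14, 0.671 for Aif1, 0.514 for C1qa, 0.599 for Fcgr1 and 0.74 for Fcgr3. It was 0.517 for Lyz2, 0.539 for Cybb, 0.768 for Ccl2, 0.485 for Ptprc, 0.501 for Cd52 and 0.582 for Ly86. JA16 replicate 1 was far above the other JA16 samples for 5 of 31 genes, against 1.38% of all genes. Here the gap was 0.506 of the range for H2-Eb1, 0.508 for Cd52, 0.603 for Laptm5, 0.5 for Coro1a and 0.466 for Ly86, which passed only before rounding. No other sample was counted for any member, and the cause was not tested.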

How the results depend on the processing

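No member passed the threshold under any of 48 settings (limma, lowest adjusted p 0.226). Of 1480 member values, 1283 kept the sign of the fit of all samples and 197 took the opposite one; Cd163 and C1qa stayed below 0 whenever a replicate was left out. Settings without pair 1, without both samples that stood apart, without pairs 1, 7 and 10, on replicates 2 to 6 or 8 to 10, without the filter but with the block, and for the difference between array sets were chosen after seeing the data. The cause of each change was not tested.

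The count of genes called was 4 in the main fit, 31 with the replicate block, 31 with the block and no filter, 29 with quantile normalization and the block, 18 with the block and without pairs 1 and 7, 11 without pairs 1, 7 and 10, 9 with the array set as a block, and 2 each with array medians centred and without moderation. It was 0 in replicates 1 to 6, 2 to 6, 7 to 10 and 8 to 10 alone, and 2 to 51 when 1 replicate or pair was left out. The difference between array sets gave 0 calls among the members in 15 alternatives. Pairing by replicate number changed no member's call.

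Signs turned as follows (log2 fold change). Array medians centred gave H2-Aa 0.001, Cd74 0.029, Ccl6 0.028, Ccl9 0.009 and Ly86 0.005. The mean of probe sets gave H2-Aa 0.042, H2-Ab1 -0.040 and Laptm5 -0.001. Without pairs 1 and 7 C1qb was 0.013, Fcgr1 0.040, H2-Ab1 -0.001, H2-Eb1 -0.003, Ccl6 0.096, Ccl9 0.060 and Ly86 0.012. Without pairs 1, 7 and 10 Cd68 was 0.164, Cd14 0.08, C1qb 0.151, C1qc 0.069, Fcgr1 0.263, Fcer1g 0.05, Tyrobp 0.049, Ctss 0.013, Cybb 0.14, Ccl6 0.218, Ccl9 0.129 and Coro1a -0.096. Without saline 7 and JA16 1 Fcgr1 was 0.013, H2-Ab1 -0.206, H2-Eb1 -0.071, Cybb 0.020, Ccl6 0.053 and Ly86 0.009. In replicates 1 to 6 Csf1r was 0.053, Cd68 0.238, Cd14 0.145, C1qb 0.12, C1qc 0.05, Fcgr1 0.087, Fcer1g 0.183, Tyrobp 0.139, H2-Aa 0.275, Cd74 0.213, Lyz2 0.043, Ctss 0.126, Cybb 0.354, Ccl6 0.10, Ccl9 0.069 and Ly86 0.273. In replicates 2 to 6 Cd68 was 0.096, Aif1 -0.019, C1qb 0.058, Fcgr1 0.052, Cybb 0.126, Ccl6 0.027, Ptprc -0.108, Cd53 -0.032, Laptm5 -0.030 and Coro1a -0.327. In replicates 7 to 10 Adgre1 was -0.537, Aif1 -0.565, H2-Ab1 -0.41, H2-Eb1 -0.459, Lgmn -0.10, Ccl2 -0.467, Cd52 -0.060 and Laptm5 -0.121. In replicates 8 to 10 Mrc1 was 0.037, C1qa 0.081, C1qc 0.070, Fcgr1 0.019, H2-Ab1 -0.071, H2-Eb1 -0.064, Ctss 0.121, Ccl6 0.211, Ccl9 0.235 and Ly86 0.073.

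With 1 replicate or pair left out, values ran from -0.215 to 0.08 for Csf1r, -0.14 to 0.331 for Adgre1, -0.341 to 0.009 for Mrc1, -0.339 to 0.091 for Cd68, -0.301 to 0.037 for Cd14, -0.262 to 0.408 for Aif1, -0.229 to 0.086 for C1qb, -0.291 to 0.057 for C1qc, -0.392 to 0.118 for Fcgr1, -0.42 to 0.02 for Fcgr3, -0.378 to 0.085 for Fcer1g and -0.414 to 0.074 for Tyrobp. They ran from -0.276 to 0.101 for H2-Aa, -0.202 to 0.217 for H2-Ab1, -0.185 to 0.239 for H2-Eb1, -0.204 to 0.09 for Cd74, -0.243 to 0.071 for Lyz2, -0.33 to 0.152 for Ctss, -0.017 to 0.357 for Lgmn, -0.361 to 0.156 for Cybb, -0.137 to 0.459 for Ccl2, -0.17 to 0.148 for Ccl6 and -0.189 to 0.124 for Ccl9. The remaining ranges were -0.027 to 0.515 for Ptprc, -0.042 to 0.477 for Cd53, -0.001 to 0.766 for Cd52, -0.123 to 0.307 for Laptm5, -0.147 to 0.489 for Coro1a and -0.286 to 0.231 for Ly86. Leaving out probe sets whose identifiers end in _a_at, _s_at or _x_at left 23 members measured. In the main fit the probe sets of C1qb, H2-Aa and Laptm5 end in _x_at and those of H2-Ab1 and Aif1 in _s_at. Those of Adgre1, Cd74, Ptprc and Coro1a end in _a_at. Itgam was too dim to test.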
